A study of Homo sapiens with 16 samples.

Results

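The 9 genes described here supply deoxynucleotides for DNA synthesis. They were picked by name, with earlier results of these data known and with no threshold on measured values, as the genes of ribonucleotide reductase (RRM1, RRM2, RRM2B), of thymidylate synthesis (TYMS, DUT, DTYMK) and of nucleoside salvage and uptake (TK1, DCK, SLC29A1). With its 92 spike-in features left out, the deposited table held each of them once among 78894 genes and other features. All 9 were among the 16218 genes with at least 1 CPM (counts scaled to 1000000 assigned reads per library) in at least 4 libraries, which were the genes tested. They were measured by RNA-seq in T47D, a luminal breast cancer line of human origin that expresses the estrogen receptor.

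The series compared cells with a knockout of FAH, which encodes the final enzyme of tyrosine breakdown, with cells that carried a control guide, and asks how FAH bears on resistance to drugs that block CDK4 and CDK6. There were 4 groups of 4 libraries. They were FAH knockout with 500 nM abemaciclib, FAH knockout with vehicle, control guide with 500 nM abemaciclib, and control guide with vehicle. Abemaciclib blocks these cell cycle kinases and was given for 3 days. All groups were of the T47D line and grew in the same serum-containing medium. Whether either genotype was a clone or a pool, and which guides were used, was not given in the sources used here. Nor do the labels say that the 4 libraries of a group are separate cultures, so p-values measure only how these libraries vary, and that variation may be technical.

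Cells make deoxynucleotides by 2 routes. In the first, ribonucleotide reductase turns ribonucleotides into deoxyribonucleotides, and thymidylate is then built from deoxyuridine monophosphate. In the second, nucleosides enter through membrane carriers and are phosphorylated by kinases. Much of this supply is tied to S phase. CDK4 and CDK6 phosphorylate RB, which frees E2F factors, and several of these genes, RRM2, TK1 and TYMS among them, are textbook targets of E2F. In RNA of whole cultures, a smaller share of cells in S phase and less mRNA per cell cannot be told apart.

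Promoter sequences were taken from RefSeq on GRCh38.p14, where 8 of the 9 members were found by symbol, with 14 promoter windows between them. RRM2B was not among them. The 250 bases before each start were searched on both strands for CCAAT, the letters that NF-Y recognises, and for TTTCCCGC, TTTCGCGC, TTTGCCGC or TTTGGCGC, the letters of the classical E2F site. These motifs were chosen after the sequences had been seen, and no match to one overlapped a match to the other. CCAAT or its complement was found in 5 of the 14 windows (35.7%), which belong to 4 members, and an E2F-type match in 2 (14.3%), which belong to 2 other members. Among the windows with no match were 1 of the 2 of TK1 and 3 of the 4 of DUT, and windows of 1 gene can overlap. Stretches of 30 bases are shown for members with a match. The capitals mark the match, and each sequence reads 5′ to 3′ on the gene's strand.
RRM2 chr2:10122604-10122633, plus strand, match from -123: ggcaaggcgcagCCAATgggaagggtcgga
RRM2 chr2:10122661-10122690, plus strand, match from -66: ggggcaccaaagCCAATgggaagggccggg
TK1 chr17:78187081-78187110, minus strand, match from -46: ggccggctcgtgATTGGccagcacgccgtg
TYMS chr18:657603-657632, plus strand, match from -39: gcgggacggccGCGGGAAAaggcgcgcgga
DUT chr15:48332144-48332173, plus strand, match from -42: gggcggggctgGCGGGAAAtttcggttttg
DTYMK chr2:241686822-241686851, minus strand, match from -24: tgttgacgccggCCAATgggagctccggaa
RRM1 chr11:4094645-4094674, plus strand, match from -28: gcatgtccatatCCAATggggcccatggga

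Positions are counted in bases from the transcription start. RRM2 had 3 copies of CCAAT upstream of the start at 10122739, the further copy being at -93, and TK1 had 2 copies of the complement, ATTGG, the further one at -77. DTYMK had 2 copies, at -92 and -24. DUT held the second E2F-type match, TTTGGCGC, at -27. Of 35116 RefSeq promoters, 32% held CCAAT in the same 250 bases, 9.53% held at least 2 copies, 2.93% held at least 3, and 2.79% held an E2F-type match. In the windows of DCK and SLC29A1 these letters were not present. The matches describe sequence and were not tested as binding sites.

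Assigned reads numbered 9915776 to 11963093 per library. FAH itself averaged 5.76 ± 0.744 CPM in knockout cells and 24.0 ± 1.35 CPM in control cells under abemaciclib, and 6.65 ± 0.323 CPM in knockout cells and 26.5 ± 1.57 CPM in control cells under vehicle (SD, n = 4 each). All 10 luminal markers examined were present in all 16 libraries, GATA3 at 1253 to 1594 CPM and KRT8 at 2664 to 6459 CPM. The summed luminal level was 17228 to 17595 CPM in knockout cells with abemaciclib, 14413 to 14821 in knockout cells with vehicle, 12919 to 13618 in control cells with abemaciclib and 10982 to 11178 in control cells with vehicle. KRT8 and KRT18 carried most of the difference between genotypes, with log2 fold changes of 0.91 and 0.95 in knockout cells under abemaciclib and of 0.90 and 0.85 under vehicle. By limma 3 of the 10 were higher and 6 lower in knockout cells under abemaciclib, and 4 were higher and 6 lower under vehicle, ESR1, GATA3 and TFF1 among the lower ones under both. The summed level of 11 markers of basal, stromal, leukocyte and endothelial cells was 65.3 to 69.9, 54.9 to 64.4, 57.1 to 68.7 and 47.5 to 50.3 CPM in the same 4 groups. Most of that sum was COL1A1, at 40.6 to 60.6 CPM, while the basal keratin KRT5 was at 0 in 15 libraries and the endothelial VWF in 13. The part of these marker shifts in the results below was not tested. Control abemaciclib replicate 1 stood apart from its fellows. The median over genes of the squared difference in depth-scaled reads, divided by its counting variance, was 0.891 to 1.06 between it and the others of its group, and at most 0.693 between all other libraries of a group, where counting noise alone gives 0.455. Results that move without it are given beside their values.

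Abemaciclib lowered the mRNA of this set in both genotypes, and the knockout cells kept less of RRM1, RRM2, TK1, TYMS and SLC29A1 under the drug. In knockout cells all 9 members fell under abemaciclib, where 27.4% of tested genes fell and 38.4% passed the test in either direction (limma on log2(CPM + 1), adjusted p under 0.05). In control cells 8 of 9 fell, all but SLC29A1, where 31.1% of tested genes fell, 19.6% were higher and 50.7% passed in either direction. The median log2 fold change of the 9 was -1.43 in knockout cells, against -0.07 for all tested genes, and -1.16 in control cells, against -0.05. The libraries of the compared groups did not overlap for 9 members in knockout cells and for 8 in control cells, where 35.9% and 42.8% of tested genes did not overlap. The difference between the genotypes in their response to the drug, the interaction, passed for 5 members, all with the deeper fall in knockout cells, where 6.16% of tested genes passed in that direction, 4.68% in the other and 10.8% in either. Both genotypes' drug effects and both knockout effects use the same 4 groups, so the comparisons are not independent of each other.

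**Figure D1:**
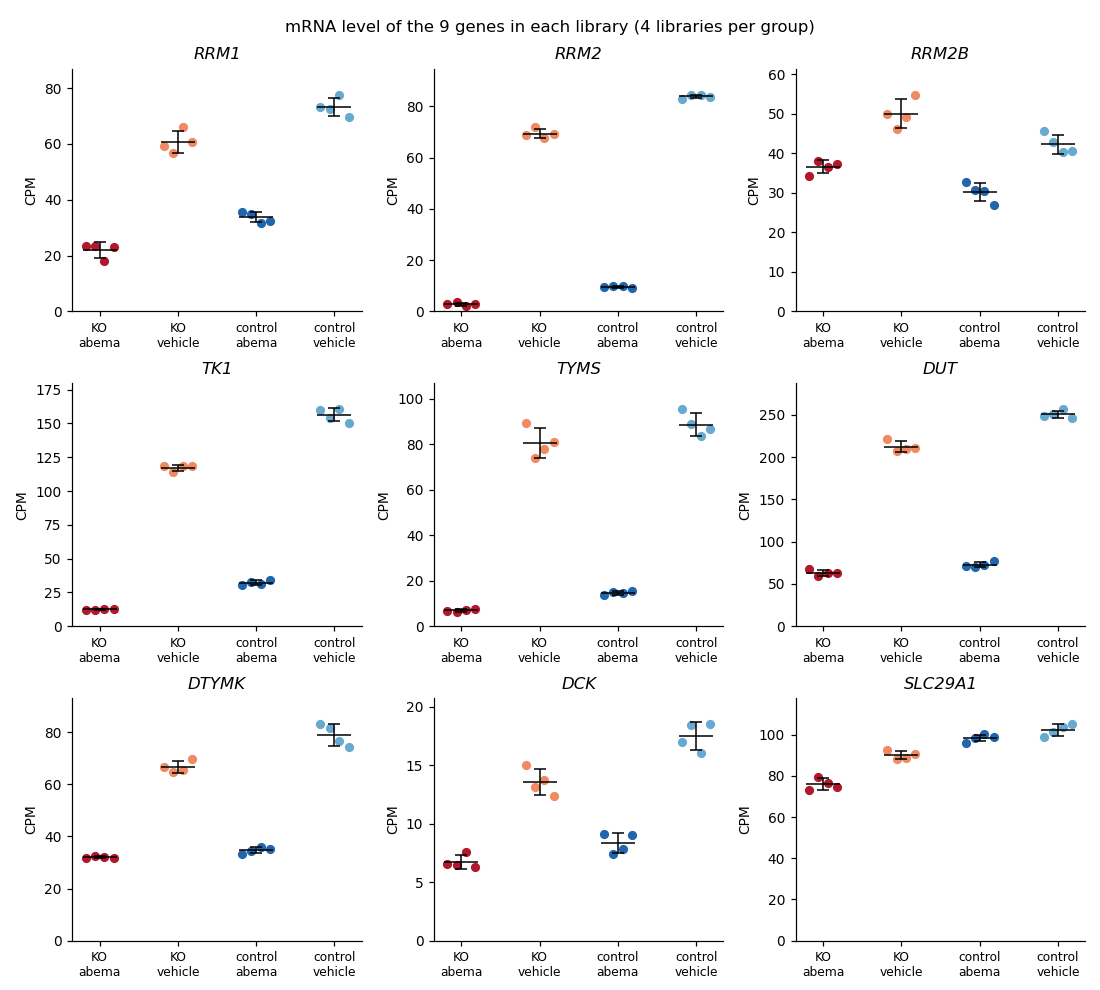
CPM of each of the 9 genes in each library, with knockout groups in reds and control-guide groups in blues. Horizontal bars are means and whiskers SD of 4 libraries. RRM2, TK1 and TYMS fall close to 0 in the knockout abemaciclib group, while RRM2B and SLC29A1 stay within a narrow range (highest group mean 1.65 and 1.35 times the lowest).

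Ribonucleotide reductase is built from a large subunit and one of 2 small subunits. RRM1 (ENSG00000167325, chr11:4094707-4138876, plus strand) encodes the large subunit, which holds the active site and the sites of allosteric control. RRM1 was measured at 23.5, 23.5, 17.9 and 23.1 CPM in knockout cells with abemaciclib and at 59.1, 56.9, 66.2 and 60.6 CPM in knockout cells with vehicle. In control cells it was at 35.6, 34.9, 31.8 and 32.6 CPM with abemaciclib and at 73.1, 72.6, 77.7 and 69.5 CPM with vehicle. The 4 groups did not overlap, and the third knockout abemaciclib library lay below its fellows. RRM1 fell under abemaciclib by 1.43 on the log2 scale in knockout cells (SE 0.0649, limma adjusted p = 4.7e-19) and by 1.10 in control cells (adjusted p = 5.4e-16). The knockout cells had less of it than control cells, under abemaciclib (log2 fold change -0.60, adjusted p = 5.8e-09) and under vehicle (-0.27, adjusted p = 0.00132).

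RRM2 (ENSG00000171848, chr2:10120698-10131419, plus strand) encodes the small subunit that carries the tyrosyl radical and is made in S phase. Its level was 2.84, 3.63, 2.25 and 2.77 CPM in knockout cells with abemaciclib, against 68.6, 71.8, 67.7 and 69.1 CPM in knockout cells with vehicle. Control cells had 9.44, 9.99, 9.86 and 9.30 CPM with abemaciclib and 82.9, 84.6, 84.3 and 83.6 CPM with vehicle. No group overlapped another, and the highest group mean was 29.2 times the lowest, the widest span among the 9. The drug effect on RRM2 in knockout cells, a log2 fold change of -4.19 (SE 0.0717, adjusted p = 2.7e-31), was the lowest of all 16218 tested genes. In control cells the log2 fold change was -3.00 (adjusted p = 5.5e-27), the 8th lowest. Knockout cells under abemaciclib held 29.8% of the mean of control cells (log2 fold change -1.47, adjusted p = 1.7e-17), whereas under vehicle they held 82.6% (-0.27, adjusted p = 0.00290). Adding 1 CPM before the log understates the change of a gene this low, and with 0.1 CPM added the drug effects became -4.56 in knockout cells and -3.11 in control cells. Ranks among tested genes, here and below, are those on the log2(CPM + 1) scale and were not taken with 0.1 CPM added. The values of RRM2 came out as whole reads in 7 of 16 libraries, so part of its reads were shared with other features and its level is uncertain to that extent. The lowest library held 26.5 reads of it, for which counting error alone gives a coefficient of variation of 19.4%.

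RRM2B (ENSG00000048392, chr8:102204502-102239118, minus strand) encodes the other small subunit, a p53-induced form that serves DNA repair and mitochondrial DNA in cells outside S phase. It stood at 34.4, 38.2, 36.6 and 37.3 CPM in knockout cells with abemaciclib and at 49.9, 46.2, 49.3 and 54.9 CPM in knockout cells with vehicle. The control cells had 32.7, 30.8, 30.6 and 27.1 CPM with abemaciclib and 45.6, 42.8, 40.4 and 40.6 CPM with vehicle. RRM2B was the one member that was higher in knockout cells, without overlap under either treatment. The log2 fold change was 0.27 under abemaciclib (SE 0.0585, adjusted p = 5.6e-04) and 0.23 under vehicle (adjusted p = 0.00172). Of all tested genes 18.6% were higher in knockout cells under abemaciclib and 24.6% under vehicle. With libraries rescaled by median-of-ratios size factors, RRM2B had 0.22 under abemaciclib (adjusted p = 0.0022) and 0.17 under vehicle (adjusted p = 0.0149). Under the drug it kept 73.2% ± 3.25 of its vehicle mean in knockout cells and 71.5% ± 5.54 in control cells (SD, n = 4 each), with log2 fold changes of -0.44 (adjusted p = 2.0e-07) and -0.47 (adjusted p = 2.6e-08). The interaction was 0.03 with a 95% confidence interval of -0.14 to 0.20 (adjusted p = 0.863).

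The subunits shifted relative to each other under the drug. A ratio of 2 genes within a library does not depend on how libraries are scaled, but because CPM is not divided by gene length, only differences of a ratio between groups are read here. The log2 ratio of RRM2 over RRM1 was -2.95 ± 0.172 in knockout cells with abemaciclib and 0.19 ± 0.125 in knockout cells with vehicle (SD, n = 4 each), a difference of -3.14. It was -1.80 ± 0.0925 in control cells with abemaciclib and 0.20 ± 0.0625 in control cells with vehicle, a difference of -2.001. Under abemaciclib it was lower in the knockout cells, with a difference of -1.15 from control cells. Under vehicle the difference was 0.00 and the libraries overlapped (exact two-sided permutation test, p = 0.971). The log2 ratio of RRM2B over RRM2 was 3.69 ± 0.265 in knockout cells and 1.65 ± 0.105 in control cells under abemaciclib, a difference of 2.04. Under vehicle it was -0.47 ± 0.125 in knockout cells and -0.99 ± 0.0885 in control cells, a difference of 0.52. Each non-overlapping ratio comparison had p = 0.0286 by the exact permutation test, the smallest that 4 against 4 libraries can give, and 0.0343 after adjustment over the 12 ratio comparisons.

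**Figure D2:**
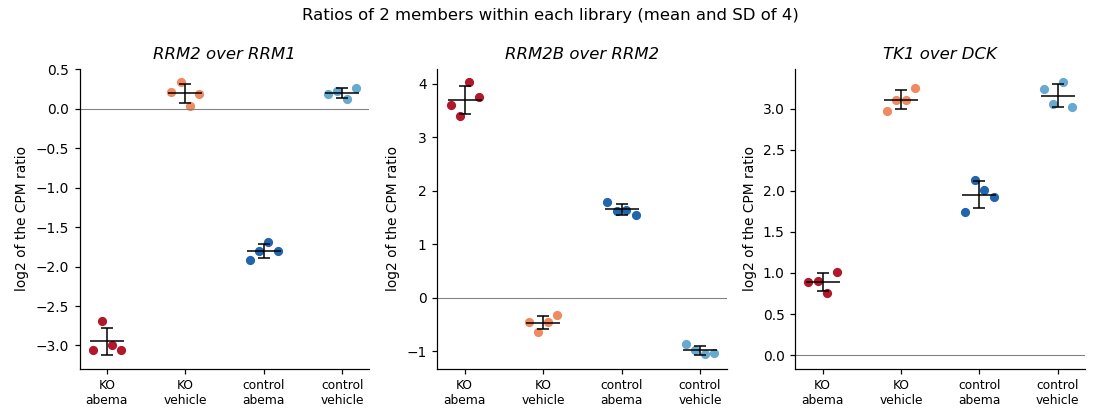
Log2 of the CPM ratio of 2 members within each library, for RRM2 over RRM1, RRM2B over RRM2 and TK1 over DCK. Points are libraries, bars means and whiskers SD of 4. The vehicle groups of both genotypes coincide for RRM2 over RRM1 (0.19 and 0.20) and for TK1 over DCK (3.11 and 3.16), and the abemaciclib groups lie apart.

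Thymidylate synthesis starts from deoxyuridine monophosphate. TYMS (ENSG00000176890, chr18:657604-673578, plus strand) encodes thymidylate synthase, the target of fluorouracil, which methylates it. TYMS was at 6.49, 6.29, 7.05 and 7.63 CPM in knockout cells with abemaciclib and at 89.3, 73.8, 78.0 and 80.7 CPM in knockout cells with vehicle. In control cells it was at 13.5, 15.1, 14.4 and 15.6 CPM with abemaciclib and at 95.3, 88.7, 83.4 and 86.6 CPM with vehicle. The genotypes were apart under the drug and overlapped under vehicle. The drug effect was -3.37 in knockout cells (log2 fold change, SE 0.0641, adjusted p = 5.9e-30) and -2.52 in control cells (adjusted p = 3.7e-26). Knockout cells held 46.9% of the control mean under abemaciclib (log2 fold change -0.99, adjusted p = 2.6e-14). Under vehicle the log2 fold change of -0.14, with a 95% confidence interval of -0.27 to -0.01, did not pass (adjusted p = 0.0910). It passed when libraries were rescaled by median-of-ratios size factors (-0.20, adjusted p = 0.0144) and without knockout vehicle replicate 1 (-0.19, adjusted p = 0.0287).

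Genes on the opposite strand overlap TYMS, and the strand setting of the counting was not given in the sources used here. Whether reads in the overlaps were told apart is therefore not known. The values of TYMS came out as whole reads in 16 of 16 libraries, those of TYMSOS in 15 and those of ENOSF1 in 12. No splitting of TYMS reads was thus seen, but reads in the overlaps may have been dropped or assigned to either gene. TYMSOS (chr18:641320-658340) shares 737 bases with TYMS and fell with it. It averaged 1.215 ± 0.528 CPM in knockout cells with abemaciclib and 8.25 ± 1.73 CPM in knockout cells with vehicle (log2 fold change -2.08, adjusted p = 2.9e-13). In control cells it averaged 2.02 ± 0.458 CPM with abemaciclib and 11.1 ± 2.01 CPM with vehicle (-1.99, adjusted p = 5.3e-13; SD, n = 4 each). ENOSF1 (chr18:670324-712676) shares 3255 bases and varied less than TYMSOS. Its means were 18.1 CPM in knockout and 21.8 CPM in control cells under abemaciclib. Under vehicle they were 20.5 CPM in knockout and 23.3 CPM in control cells. ENOSF1 was lower in knockout cells under abemaciclib (log2 fold change -0.26, limma adjusted p = 8.3e-04) and under vehicle (-0.17, adjusted p = 0.0189). Its drug effect was -0.17 in knockout cells (adjusted p = 0.0170) and -0.09 in control cells (adjusted p = 0.212).

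DUT (ENSG00000128951, chr15:48331011-48343373, plus strand) encodes the dUTPase that keeps uracil out of DNA and yields the substrate of thymidylate synthase. It was at 67.3, 59.4, 62.3 and 63.0 CPM in knockout cells with abemaciclib and at 222, 208, 209 and 211 CPM in knockout cells with vehicle. Control cells had 71.4, 70.4, 72.7 and 77.2 CPM with abemaciclib and 249, 251, 257 and 246 CPM with vehicle. The groups did not overlap, yet the 2 genotypes lost nearly the same share. The drug left 29.6% ± 1.54 of the vehicle mean in knockout cells and 29.1% ± 1.19 in control cells (SD, n = 4 each), with log2 fold changes of -1.74 and -1.77 (adjusted p = 9.4e-28 and 5.6e-28). DUT was lower in knockout cells under abemaciclib (log2 fold change -0.21, adjusted p = 9.0e-05) and under vehicle (-0.24, adjusted p = 1.0e-05), and its interaction was 0.03 with a 95% confidence interval of -0.08 to 0.14.

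DTYMK (ENSG00000168393, chr2:241675742-241686991, minus strand) encodes thymidylate kinase, the step that both the synthesis and the salvage of thymidylate pass through. Knockout cells had 31.6, 32.5, 32.2 and 31.7 CPM with abemaciclib and 66.8, 64.5, 65.3 and 69.6 CPM with vehicle. Control cells had 33.3, 34.3, 36.1 and 35.4 CPM with abemaciclib and 83.2, 81.4, 76.6 and 74.2 CPM with vehicle. The level fell under the drug in both genotypes, by 1.03 on the log2 scale in knockout cells (adjusted p = 3.8e-19) and by 1.16 in control cells (adjusted p = 1.3e-20). It was lower in knockout cells under vehicle (log2 fold change -0.24, adjusted p = 9.8e-05). Under abemaciclib the genotypes did not overlap but the log2 fold change of -0.11, with a 95% confidence interval of -0.21 to -0.02, missed the threshold (adjusted p = 0.0605). It passed without control abemaciclib replicate 1 (-0.13, adjusted p = 0.0323) and after rescaling (-0.16, adjusted p = 0.0113).

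Salvage of thymidine runs through TK1 (ENSG00000167900, chr17:78174075-78187233, minus strand), the cytosolic thymidine kinase of S phase. TK1 was at 12.3, 12.1, 12.7 and 12.7 CPM in knockout cells with abemaciclib and at 118, 114, 118 and 119 CPM in knockout cells with vehicle. In control cells it was at 30.5, 32.6, 31.4 and 34.5 CPM with abemaciclib and at 160, 154, 161 and 151 CPM with vehicle. All 4 groups stood apart with gaps wider than their spread. The drug effect was -3.14 in knockout cells (log2 fold change, SE 0.0450, adjusted p = 1.7e-33) and -2.24 in control cells (adjusted p = 4.0e-29). Knockout cells held 38.6% of the control mean under abemaciclib (log2 fold change -1.30, adjusted p = 1.7e-21). Under vehicle TK1 had the largest shift between genotypes among the 9, with 75.0% of the control mean (-0.41, adjusted p = 5.3e-09).

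DCK (ENSG00000156136, chr4:70992538-71030914, plus strand) encodes deoxycytidine kinase, which phosphorylates deoxycytidine and deoxypurine nucleosides and activates drugs such as gemcitabine. It was at 6.58, 6.46, 7.56 and 6.31 CPM in knockout cells with abemaciclib and at 15.05, 13.2, 13.7 and 12.4 CPM in knockout cells with vehicle. Control cells had 9.16, 7.45, 7.82 and 9.06 CPM with abemaciclib and 17.0, 18.4, 16.03 and 18.5 CPM with vehicle. The treatments stood apart in each genotype, and the genotypes overlapped under abemaciclib, where 1 control library was below the highest knockout library. DCK fell under the drug by 0.91 on the log2 scale in knockout cells (adjusted p = 8.0e-11) and by 0.98 in control cells (adjusted p = 8.0e-12). It was lower in knockout cells under abemaciclib (log2 fold change -0.28, SE 0.0848, adjusted p = 0.0127) and under vehicle (-0.34, adjusted p = 0.00151). The log2 ratio of TK1 over DCK was 0.89 ± 0.106 in knockout cells and 1.95 ± 0.164 in control cells under abemaciclib, a difference of -1.06. Under vehicle it was 3.11 ± 0.117 in knockout cells and 3.16 ± 0.143 in control cells (SD, n = 4 each), a difference of -0.05 (exact permutation p = 0.657, adjusted p = 0.717).

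SLC29A1 (ENSG00000112759, chr6:44219505-44234151, plus strand) encodes ENT1, the equilibrative carrier through which nucleosides and many nucleoside drugs cross the plasma membrane. Knockout cells had 73.2, 79.5, 76.7 and 74.4 CPM with abemaciclib and 92.5, 88.0, 88.8 and 90.6 CPM with vehicle. Control cells had 96.1, 98.4, 100.1 and 98.9 CPM with abemaciclib and 98.9, 101.3, 103.5 and 105.3 CPM with vehicle. Only the knockout cells showed separate treatment groups. SLC29A1 fell under the drug in knockout cells (log2 fold change -0.24, SE 0.0381, adjusted p = 3.8e-06), by less after rescaling (-0.15, adjusted p = 0.00262) and under quantile normalization (-0.16, adjusted p = 0.00129). In control cells the difference was -0.05 with a 95% confidence interval of -0.13 to 0.02 (adjusted p = 0.241), and its sign turned to 0.02 after rescaling. Knockout cells were lower under abemaciclib (log2 fold change -0.37, adjusted p = 2.1e-09) and under vehicle (-0.18, adjusted p = 2.5e-04).

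Set side by side, the members split by how far the genotypes differed under the drug. RRM2 kept 4.14% ± 0.822 of its vehicle mean in knockout cells and 11.5% ± 0.394 in control cells (SD, n = 4 each). TK1 kept 10.6% ± 0.266 in knockout cells and 20.6% ± 1.09 in control cells, and TYMS kept 8.53% ± 0.748 in knockout cells and 16.5% ± 1.04 in control cells. These 3 genes, the ones with the deepest falls in both genotypes, had the largest interactions of the set. The interaction was -1.20 for RRM2 (SE 0.101, limma adjusted p = 2.3e-10), the lowest of the 16218 tested genes. For TK1 it was -0.89 (SE 0.0637, adjusted p = 4.7e-12), the 27th lowest, and for TYMS -0.86 (SE 0.0906, adjusted p = 3.8e-08), the 32nd lowest. RRM1 kept 36.2% ± 4.49 in knockout cells and 46.0% ± 2.48 in control cells, with an interaction of -0.33 (adjusted p = 0.0146). SLC29A1 kept 84.4% ± 3.12 in knockout cells and 96.2% ± 1.63 in control cells, with an interaction of -0.19 (adjusted p = 0.0197). The calls of RRM1 and SLC29A1 were lost when limma was run without a trend (adjusted p = 0.0817 and 0.0536), and that of RRM1 also when no filter on low values was used (adjusted p = 0.124).

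**Figure D3:**
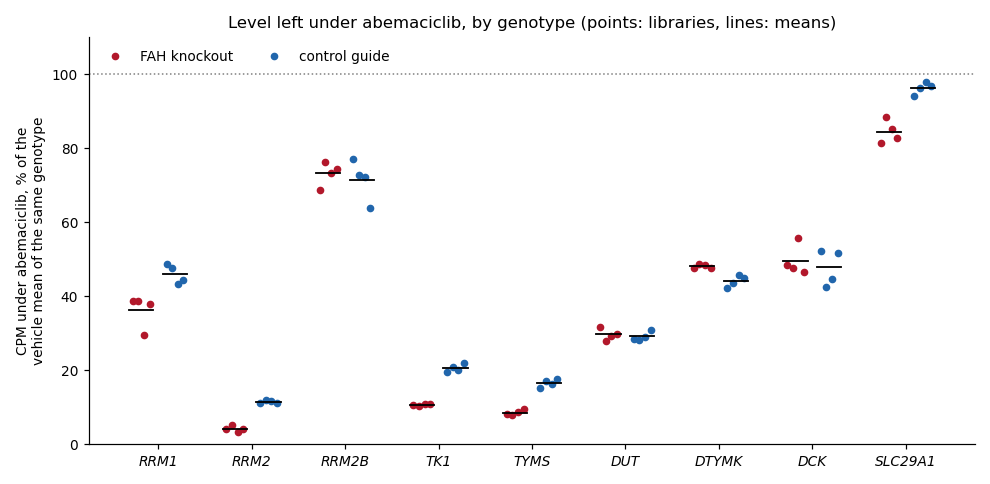
CPM of each library under abemaciclib as a percent of the vehicle mean of the same genotype, knockout cells in red and control-guide cells in blue, with lines at the means. The red points lie below the blue ones for RRM1, RRM2, TK1, TYMS and SLC29A1, and DUT is near 29% in both genotypes.

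For the other 4 genes the interaction did not pass. DTYMK kept 48.1% ± 0.619 in knockout cells and 44.1% ± 1.59 in control cells, and DCK kept 49.6% ± 4.16 in knockout cells and 47.8% ± 4.94 in control cells. Their interactions were 0.13 for DTYMK (95% confidence interval -0.01 to 0.26, adjusted p = 0.248) and 0.07 for DCK (-0.17 to 0.31, adjusted p = 0.791). These intervals, with those of RRM2B and DUT, bound the difference and do not show that the genotypes responded alike.

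Between the genotypes, 8 of 9 members passed under abemaciclib, 7 lower and RRM2B higher in knockout cells, where 29.9% of tested genes passed, 11.3% lower and 18.6% higher. Under vehicle 8 of 9 passed as well, 7 lower and RRM2B higher, where 37.7% of tested genes passed, 13.1% lower and 24.6% higher. The median log2 fold change of the 9 was -0.37 under abemaciclib, against 0.04 for all tested genes, and -0.24 under vehicle, against 0.06. Under abemaciclib 8 members did not overlap between genotypes, where 26.6% of tested genes did not, and under vehicle 8 did not, where 35% of tested genes did not. The knockout effects on RRM2, TK1 and TYMS under abemaciclib were the 10th, 22nd and 57th lowest of the 16218 tested genes.

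**Figure D4:**
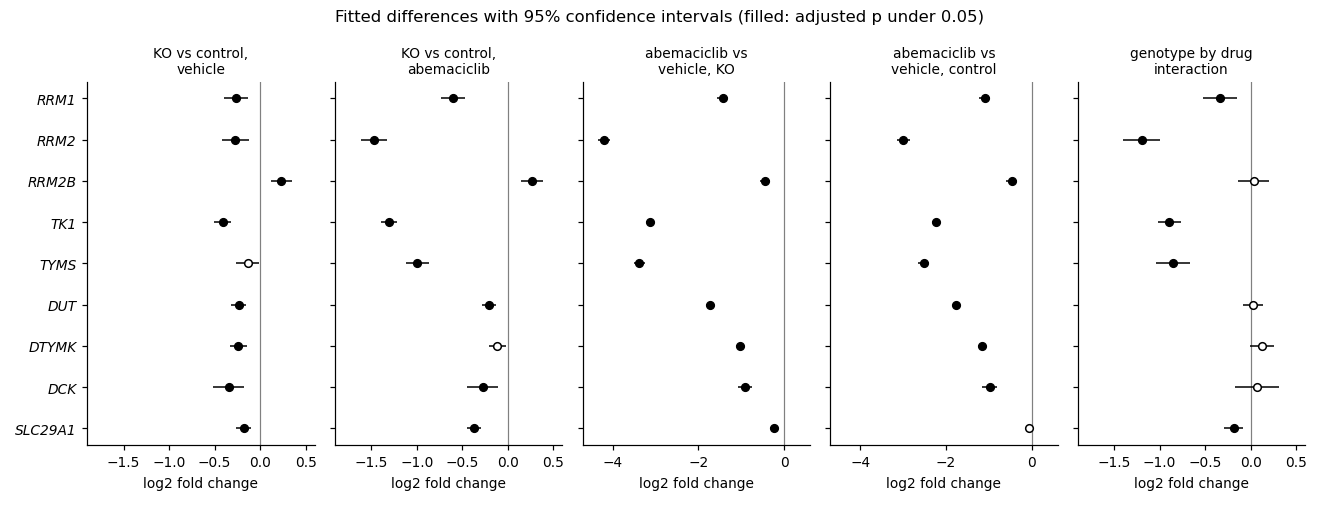
Log2 fold change of each member in the 5 comparisons, as knockout minus control or abemaciclib minus vehicle on the log2(CPM + 1) scale, with 95% confidence intervals (filled points have an adjusted p under 0.05). RRM2, TK1 and TYMS reach furthest to the left in the drug comparisons and in the interaction, and RRM2B is the one gene right of 0 in both knockout comparisons. The drug panels have a wider scale than the others.

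For RRM1, RRM2, TK1, TYMS, DUT, DTYMK and DCK the group means had the same order, lowest in knockout cells with abemaciclib, then control cells with abemaciclib, knockout cells with vehicle and control cells with vehicle. Neighbours in that order overlapped for DCK between the 2 abemaciclib groups and for TYMS between the 2 vehicle groups. RRM2B had the reverse genotype order within each treatment, and SLC29A1 had both knockout groups below both control groups. Knockout cells under abemaciclib held 3.42% of the control vehicle mean of RRM2, 7.76% of that of TYMS and 7.97% of that of TK1. They held 25.2% for DUT, 30.05% for RRM1, 38.5% for DCK and 40.6% for DTYMK, and 74.3% for SLC29A1 and 86.5% for RRM2B.

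Over the 16 libraries, which fall into 4 groups, the levels of the members were also compared as patterns. Pearson's r of log2(CPM + 1) is given as a description with no p, since the 4 groups set most of it. Among the 36 pairs of members, RRM2 and TK1 had r = 0.995 and DUT and DTYMK r = 0.994, while RRM2B and SLC29A1 had r = -0.02. Among the tested genes with a symbol that was not repeated, those closest in pattern to RRM2 were MYBL2, CDK1 and CDC45 (r = 0.997 each). MYBL2, SPAG5 and TOP2A were closest to TYMS (r = 0.998, 0.998 and 0.997), and PCLAF, GINS2 and CENPM to TK1 (r = 0.998, 0.997 and 0.996). RRM1 was closest to FANCI (r = 0.995), MND1 (r = 0.991) and RIPPLY3 (r = 0.990). CDC20, HMGB2 and ARHGEF39 were closest to DUT (r = 0.998, 0.998 and 0.997), and CCNB1, CALM3 and CDC20 to DTYMK (r = 0.995, 0.994 and 0.994). For DCK the closest were PSIP1, RTKN2 and RPP30 (r = 0.985 each). RRM2B was closest to DIAPH1 and PSMC2 (r = 0.975 each) and GNA11 (r = 0.962), and SLC29A1 to IRX3, SLC16A3 and CDV3 (r = 0.947, 0.944 and 0.944).

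Other genes that make, convert or destroy nucleotides were followed in 7 lists, and none of them reached the log2 fold changes of RRM2, TK1 or TYMS under abemaciclib in either genotype. Their counts stand against 27.4% of all tested genes lower and 11% higher in knockout cells, and 31.1% lower and 19.6% higher in control cells, and no test of a list was run. Among 8 partners of the thymidylate cycle, which carry and recycle folate, 7 fell in knockout cells and 6 in control cells, with median log2 fold changes of -0.29 and -0.40. After rescaling of the libraries 5 fell in each genotype and 1 was higher in control cells. SHMT2, the mitochondrial serine hydroxymethyltransferase, fell by 0.78 on the log2 scale in control cells, at 196 ± 8.10 CPM with abemaciclib and 337 ± 1.90 CPM with vehicle (SD, n = 4 each; adjusted p = 8.1e-20). Its log2 fold change in knockout cells was -0.22 (limma adjusted p = 1.8e-06), at 179 ± 2.24 CPM with abemaciclib and 209 ± 7.27 CPM with vehicle.

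**Figure D5:**
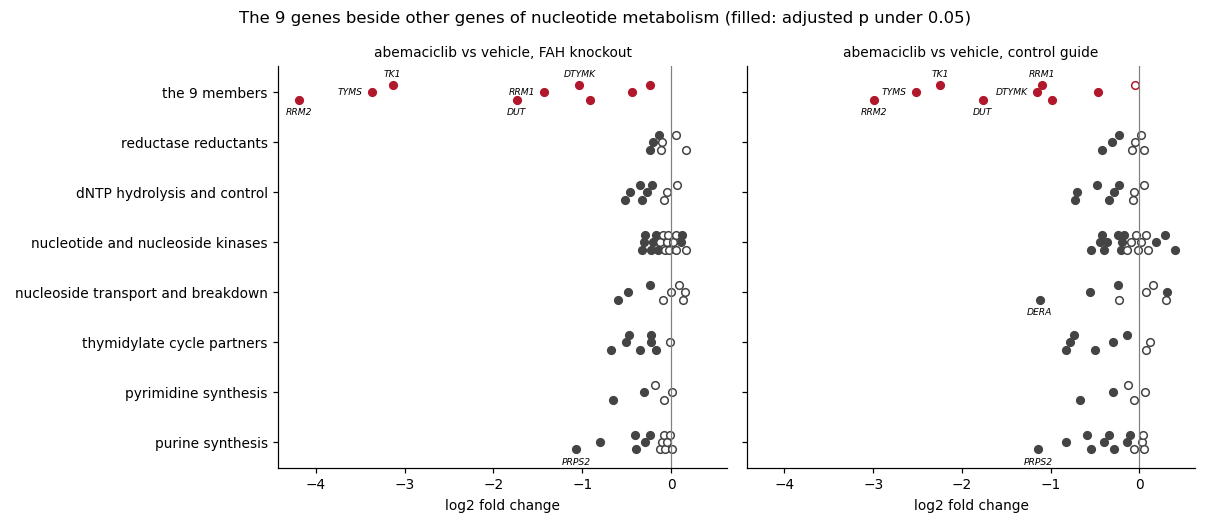
Log2 fold change under abemaciclib of the 9 members (red) and of the tested genes of 7 other nucleotide lists (grey), in knockout cells on the left and control cells on the right (filled points have an adjusted p under 0.05). Genes below -1 are named, and beside the members these are PRPS2 in both genotypes and DERA in control cells.

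Of 13 purine synthesis genes, 6 fell under abemaciclib in knockout cells and 9 in control cells, with medians of -0.13 and -0.29, and after rescaling 5 and 7 fell. PRPS2, which makes the activated ribose, fell by 1.07 on the log2 scale in knockout cells (adjusted p = 9.0e-16) and by 1.14 in control cells (adjusted p = 1.0e-16). Of 5 pyrimidine synthesis genes 2 fell in each genotype, CTPS1, the CTP synthase, by 0.65 in knockout cells and 0.67 in control cells (adjusted p = 1.9e-09 and 5.3e-10), and CAD, the enzyme of the first steps, by 0.30 in each (adjusted p = 0.0022 and 0.0016). After rescaling 1 of the 5 was higher in control cells. Of the 7 genes of thioredoxin and glutaredoxin systems that reduce ribonucleotide reductase, 3 fell in each genotype, TXN by 0.14 in knockout cells and 0.42 in control cells (adjusted p = 3.0e-04 and 5.0e-14; interaction 0.28, adjusted p = 1.2e-05). After rescaling, 1 fell and 2 were higher in knockout cells, while 3 fell in control cells.

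Among 19 further nucleotide and nucleoside kinases, 7 fell and 2 were higher under abemaciclib in knockout cells, and 9 fell and 3 were higher in control cells. After rescaling the split in knockout cells was 2 lower and 5 higher. UCK2, a uridine-cytidine kinase, fell by 0.33 in knockout cells and 0.54 in control cells (adjusted p = 2.9e-04 and 5.3e-08). Of 9 genes that hydrolyse or limit deoxynucleotides 6 fell in each genotype, NUDT1, which clears oxidised purine triphosphates, by 0.47 in knockout cells and 0.72 in control cells (adjusted p = 3.0e-10 and 3.3e-15). After rescaling 5 of these fell and 1 was higher in knockout cells. Of 12 genes of nucleoside transport and breakdown 8 were tested, and 3 of them fell in each genotype while 1 was higher in control cells. After rescaling 2 fell and 2 were higher in knockout cells, and 2 fell and 3 were higher in control cells. DERA, the deoxyribose-phosphate aldolase, averaged 138 ± 3.63 CPM with abemaciclib and 194 ± 5.98 CPM with vehicle in knockout cells, and 89.8 ± 2.33 CPM with abemaciclib and 197 ± 8.62 CPM with vehicle in control cells (SD, n = 4 each). Its interaction was 0.64 (adjusted p = 1.2e-10), opposite in sign to those of RRM2, TK1 and TYMS.

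Between the genotypes these lists held genes that moved both with and against the members, and the shares of all tested genes were 11.3% lower and 18.6% higher under abemaciclib and 13.1% lower and 24.6% higher under vehicle. In knockout cells 3 thymidylate cycle partners were lower under abemaciclib and 4 under vehicle, of 8, with medians of -0.08 and -0.12 (4 and 5 after rescaling). Of the 19 kinases 5 were higher and 2 lower under abemaciclib, and 4 higher and 6 lower under vehicle, with 3 and 2, and 2 and 10, after rescaling. Of the 8 transport and breakdown genes tested, 2 were higher under abemaciclib and 4 under vehicle, and after rescaling 2 were higher and 1 lower under each. Of the 7 reductant genes 3 were higher under abemaciclib, while 1 was higher and 1 lower under vehicle, with 3 and 1, and 1 and 4, after rescaling. Of the 13 purine synthesis genes 3 were higher and 1 lower under abemaciclib and 3 lower under vehicle, and after rescaling 2 and 4 were lower. Of the 9 hydrolysis and control genes 2 were lower under abemaciclib, and 2 were higher and 3 lower under vehicle, with 1 and 4 under vehicle after rescaling. CTPS2 was the 1 pyrimidine gene that passed, lower under abemaciclib (log2 fold change -0.17, adjusted p = 0.015), and after rescaling 2 of the 5 were lower under vehicle. FOLR1, a folate receptor, was at 5.58 ± 0.235 CPM in knockout cells and 17.9 ± 0.469 CPM in control cells under abemaciclib, and at 6.70 ± 0.663 CPM in knockout cells and 16.5 ± 0.507 CPM in control cells under vehicle (SD, n = 4 each; log2 fold changes -1.52 and -1.18, adjusted p = 4.7e-17 and 2.9e-14). SHMT2 was lower in knockout cells under vehicle, at 209 ± 7.27 CPM in knockout cells and 337 ± 1.90 CPM in control cells (log2 fold change -0.69, adjusted p = 9.2e-18), with an interaction of 0.56 (adjusted p = 2.3e-10). CMPK2, a mitochondrial kinase of uridine and cytidine monophosphates and their deoxy forms, was higher in knockout cells at 3.26 ± 0.481 CPM, against 1.35 ± 0.167 CPM in control cells, under abemaciclib. Under vehicle it was at 2.79 ± 0.240 CPM in knockout cells and 0.816 ± 0.380 CPM in control cells (log2 fold changes 0.85 and 1.08, adjusted p = 8.4e-06 and 8.5e-08). SAMHD1, which destroys deoxynucleoside triphosphates, was at 23.8 ± 2.38 CPM in knockout cells and 21.3 ± 0.742 CPM in control cells under abemaciclib, where the log2 fold change of 0.14 did not pass (adjusted p = 0.0921). It was higher in knockout cells under vehicle, at 30.6 ± 2.07 CPM against 22.3 ± 0.888 CPM in control cells (log2 fold change 0.44, adjusted p = 1.7e-06), and its interaction was -0.29 (adjusted p = 0.034).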

How the data were processed

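RNA of 16 T47D libraries was sequenced by a commercial service, per the labels' protocols. Reads were aligned with STAR 2.7.11, handled with SAMtools 1.22.1, counted with featureCounts of Subread 2.1.1 and summarised with MultiQC 1.32 against GRCh38, per the submitters' processing notes. Strand setting, annotation release and the treatment of shared reads were not given in the sources used here. The authors deposited the values as CPM, and each library sums to 1000000. Positions of genes are those of GENCODE release 29.

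The 92 spike-in features were left out. Steps between low values gave the depth, and 70.2 to 71.8% of values above 0 were whole reads within 0.02 reads. The rest were fractions, so the main test was not a count test, and voom on recovered reads was run only as an alternative. Genes that reached 1 CPM in 4 or more libraries were taken to log2(CPM + 1). A limma model (limma 3.58.1, R 4.3.3) with a mean per group held all 16 libraries, with a trended empirical Bayes variance and two-sided tests. P-values were adjusted by Benjamini-Hochberg across every tested gene, separately for each comparison, with a threshold of 0.05. Per-library log2 ratios of members were compared by exact permutation tests. At this depth 1 CPM is about 10 reads, reads were not counted by molecule, and counting error is therefore a lower limit. Alternatives were rescaling, quantile normalization, a pseudocount of 0.1, no filter, no trend, voom on recovered reads, a replicate block and leaving out each library.

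Named were all members, and from each of 7 nucleotide lists the called genes with the largest changes, at most 3 in a comparison, of which the text gives some, and for each member the 3 genes of highest Pearson correlation. Only tested genes with a symbol that was not repeated were ranked by correlation. The members and lists were chosen with earlier results of these data known. A gene of the thymidylate cycle list is not reported here.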

Additional observations from a re-analysis of the deposited data

Results flagged for a closer look

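A library far from the rest was looked for in 48 groups of 4 libraries. These were groups of the CPM of the 9 members and of the log2 ratios RRM2 over RRM1, RRM2B over RRM2 and TK1 over DCK. Of the 48 groups 2 stood out, each in the CPM of a member, and chance alone marks about 1 in 20 groups. RRM1 was at 17.9 CPM in knockout abemaciclib replicate 3, and the gap to its nearest fellow was 0.920 of the range of the group. Without that library the interaction of RRM1 was -0.24 (adjusted p = 0.0413). TK1 was at 113.7 CPM in knockout vehicle replicate 2, with a gap of 0.924 of the range.

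The drug effect differed between knockout and control cells, by limma's interaction term, for 5 members. The log2 interaction was -1.20 for RRM2, -0.89 for TK1, -0.86 for TYMS, -0.33 for RRM1 and -0.19 for SLC29A1.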

How the results depend on the processing

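The numbers of members that passed were 9 and 8 for abemaciclib in knockout and control cells, 8 and 8 for the knockout under abemaciclib and under vehicle, and 5 for the interaction. Without a trend in limma the interaction count was 3, losing RRM1 and SLC29A1, and with no filter it was 4, losing RRM1. The knockout counts were 8 to 9 when libraries were left out in turn, and 9 in each after rescaling or quantile normalization, and voom gave 9 under vehicle. No pairing of libraries by replicate number was seen, and a weak one could be missed. Deviations of same-numbered libraries correlated at -0.0367 to 0.0603 over 24 pairs, and 0 of 16 libraries were closest to their own number in every other group. In the order of the counts above, the replicate block gave 9, 8, 8, 8 and 5 calls, so it changed none. SLC29A1 under abemaciclib in control cells turned to 0.0166 after rescaling and 0.0538 under quantile normalization. The DUT interaction was -0.0359 under quantile normalization and -0.00339 to 0.0557 without single libraries, and that of RRM2B -0.0177 to 0.0778. The cause of these shifts was not tested.

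Leaving out 1 library leaves 3 against 4 in a ratio comparison, where the smallest exact p is 0.0571, so no ratio can pass. The RRM2 over RRM1 difference was then -1.23 to -1.11 between genotypes under abemaciclib and -0.0514 to 0.0499 under vehicle, -3.23 to -3.09 for the drug in knockout cells and -2.04 to -1.96 in control cells. RRM2B over RRM2 gave 1.93 to 2.14, 0.47 to 0.57, 4.05 to 4.26 and 2.59 to 2.68 in the same order, and TK1 over DCK gave -1.13 to -0.999, -0.0959 to 0.00695, -2.27 to -2.17 and -1.27 to -1.14. A pseudocount of 1 in the ratios kept every direction and call. Quantile normalization moved the median of all tested genes by 0.10 for the drug in knockout cells, and other shifts were smaller.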
